A study of Homo sapiens with 15 samples.

Results

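The cornified envelope and keratinocyte differentiation genes were 50 genes picked by symbol. They encode proteins of the envelope, the enzymes that cross-link it, the kallikreins that digest adhesion between surface cells, and further terminal differentiation proteins and regulators. All 50 were among the 60649 genes listed. Of these, 25 had a mean count of 3 or more over the 15 libraries and were tested, and 25 lay under that mean.

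The cornified envelope is the insoluble protein shell that replaces the plasma membrane of a dying keratinocyte at the surface of stratified epithelium. Periplakin and envoplakin form its scaffold, transglutaminases join involucrin, loricrin and small proline-rich proteins onto it, and kallikreins with their inhibitors set the pace at which surface cells are shed. Squamous carcinoma lines in culture often keep early keratinocyte genes while expressing little of the late program.

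The study asked what PRMT5, the enzyme that places symmetric dimethyl marks on arginines, and its cofactor WDR77 control in HSC5 cells. HSC5 is an established line from a human skin squamous cell carcinoma. RNA was sequenced from 15 libraries, 3 for each of 5 conditions. The labels call the replicates biological without saying whether they came from separate infections, so p-values here measure the spread between these samples.

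The control condition, sgNeg, had the genotype label WT and is called an empty vector control in the study's text. The conditions sgPRMT5-1 and sgPRMT5-2 carried the label PRMT5 Knockout, and sgWDR77-1 and sgWDR77-2 carried WDR77 Knockout. All 5 conditions, controls included, carried the treatment label Neomycin. The cells expressed Cas9 and were infected with virus carrying the guide, with selection in G418 stated for the related depletion experiments. The cells were bulk cultures, so fewer cells expressing a gene and less RNA per cell could not be told apart.

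Reads on genes ranged from 5434211 to 5824192 in sgNeg, from 5958936 to 6704352 in sgPRMT5-1 and from 6058519 to 6730428 in sgPRMT5-2. The range was 5146711 to 5489385 in sgWDR77-1 and 5225996 to 5613325 in sgWDR77-2. At these depths a gene near the filter had about 3 reads in a library. Levels are given as raw counts or as CPM, counts divided by library size and brought to a common scale with TMM factors.

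The targeted genes were examined to check the labels. PRMT5 stood at 59.1, 49.6 and 67.8 CPM in the 3 sgNeg libraries, at 33.0, 35.8 and 41.4 CPM in sgPRMT5-1 and at 44.2, 44.5 and 39.4 CPM in sgPRMT5-2. All 6 libraries of the PRMT5 guides lay below the lowest control, and the message was reduced, not absent. The log2 fold change against sgNeg was -0.67 (SE 0.13, limma voom adjusted p = 0.00568) for sgPRMT5-1 and -0.45 (SE 0.13, limma voom adjusted p = 0.0114) for sgPRMT5-2.

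WDR77 stood at 125, 114 and 119 CPM in sgNeg, at 30.8, 52.0 and 53.3 CPM in sgWDR77-1 and at 26.6, 24.9 and 21.96 CPM in sgWDR77-2. All 6 libraries of the WDR77 guides lay below every control library, and those of sgWDR77-2 below those of sgWDR77-1. The log2 fold change was -1.43 (SE 0.15, limma voom adjusted p = 1.99e-06) for sgWDR77-1 and -2.29 (SE 0.17, limma voom adjusted p = 6.79e-09) for sgWDR77-2. A guide can disrupt a protein without removing its message, so these levels do not measure protein loss. From western blots, with HSC5 among the lines, the study reported that depleting PRMT5 or WDR77 lowered both proteins.

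The libraries of a condition did not spread equally. A chi-square of counts per degree of freedom between pairs of libraries was 12.6 and 17.7 between sgWDR77-1 replicate 1 and the other libraries of its condition, against 3.21 between those. In sgNeg the pairs gave 9.16, 3.86 and 6.44, and in sgPRMT5-2 1.57, 2.44 and 1.55. sgPRMT5-1 replicate 3 gave 6.04 and 5.38 with the others of its condition, against 2.02 between those. For sgWDR77-2 replicate 1 the values were 4.97 and 6.78, against 2.03. No pair was identical, and sgWDR77-1 replicate 1 stood furthest apart, so the number of genes called with that guide is also given without it. Counts without sgPRMT5-1 replicate 3 and without sgWDR77-2 replicate 1 are given as well. Reads outside annotated genes were 7.16% of listed reads in sgNeg replicate 2, and 6.04% and 5.70% in sgWDR77-1 replicates 2 and 3, against 2.75% to 4.26% in the other 12 libraries. Genes with a read numbered 20399, 19564 and 19720 in those 3 libraries and 17995 to 19230 in the others. The part of this difference in the results for sgWDR77-1, and in those that use sgNeg, was not tested.

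The skin squamous label was compared with marker genes. Of 10 squamous keratinocyte markers, 9 had a mean count of 3 or more, and their summed level was 3992, 4052 and 4488 CPM in sgNeg and between 3479 and 4556 CPM in the other conditions. KRT14, the partner of KRT5 in basal cells, was the exception with a mean count of 2.53. All 5 markers of simple glandular epithelium were also measured, with KRT8 at 1176 CPM and KRT18 at 838 CPM on average in sgNeg. The squamous sum hides changes in single genes. Of the 9 tested markers, 1 was higher and 3 lower with sgPRMT5-1, 2 and 3 with sgPRMT5-2, 1 and 3 with sgWDR77-1, and 3 and 3 with sgWDR77-2. Of all tested genes, 1.26% were higher and 1.61% lower with sgPRMT5-1, and 16.3% and 14.7% with sgPRMT5-2. The shares were 3.57% and 5.9% with sgWDR77-1, and 1.81% and 2.97% with sgWDR77-2. KRT5, KRT6A and the desmosomal cadherin DSG3 were lower with all 4 guides. KRT6A, a keratin of activated keratinocytes, averaged 21.3 CPM in sgNeg, 6.63 CPM in sgPRMT5-1 and 1.73 CPM in sgPRMT5-2, and 1.54 and 4.57 CPM in the first and second WDR77 condition. DSG3 averaged 55.4 CPM in sgNeg and 39.4, 30.2, 27.9 and 35.1 CPM in the same order of conditions, and KRT17 was higher with sgWDR77-2 by 0.83 (SE 0.09). SFN was higher with sgPRMT5-1 (0.39, SE 0.09), sgPRMT5-2 (0.45, SE 0.09) and sgWDR77-2 (0.34, SE 0.09). CDH1, the epithelial cadherin, was higher with sgPRMT5-2 (0.35, SE 0.08), sgWDR77-1 (0.43, SE 0.08) and sgWDR77-2 (0.36, SE 0.08). The line thus carried TP63, KRT5 and desmosomal genes beside simple keratins.

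Markers of other cell types were low. The 5 leukocyte markers summed to between 0 and 0.555 CPM. Of 7 fibroblast markers only COL1A1 reached the mean of 3, and DCN had a mean count of 0.0667. Of 4 endothelial markers, VWF and CDH5 reached it, while PECAM1 had a mean count of 0.667. The endothelial sum was 22.9, 16.6 and 24.9 CPM in sgNeg and 34.2, 31.3 and 36.1 CPM in sgWDR77-1. There CDH5 averaged 31.7 CPM and VWF 2.03 CPM, against 18.5 and 2.85 CPM in sgNeg. CDH5 was called higher with sgWDR77-1, by 0.80 (SE 0.16). In sgPRMT5-2, VWF was at -2.28 (SE 0.56), PMEL at -1.41 (SE 0.43) and COL1A1 at -0.65 (SE 0.25), all called lower. The simple epithelial sum was lower in sgWDR77-1, at 2128, 2171 and 2008 CPM against 3025, 2682 and 3088 CPM in sgNeg, and higher in sgPRMT5-2, at 3436, 3461 and 3521 CPM. Its members moved in opposite directions in sgPRMT5-2, with KRT8 at 0.52 (SE 0.10) and KRT18 at 0.51 (SE 0.09), but KRT19 at -1.26 (SE 0.08) and MUC1 at -1.93 (SE 0.27). KRT19 was also lower with sgPRMT5-1 (-0.47, SE 0.08), sgWDR77-1 (-1.04, SE 0.08) and sgWDR77-2 (-0.82, SE 0.08), and MUC1 with sgPRMT5-1 (-1.11, SE 0.22). In sgWDR77-1, KRT8 was at -0.46 (SE 0.10) and KRT18 at -0.53 (SE 0.10), both called lower. The part of these differences in the results below was not tested. Melanocyte markers summed to between 2.55 and 7.48 CPM, with PMEL the most abundant.

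Most late envelope genes were at or near 0. Of 14 envelope precursors and scaffold proteins, 8 lay under the mean of 3. Involucrin (IVL), the classic soluble precursor, had 30 reads in all 15 libraries together, with at most 5 in a library. The proline-rich precursors SPRR1B and SPRR2A had 13 and 14 reads in all, and SPRR2D, SPRR2E and SPRR3 had 3, 2 and 2. CRCT1 and CRNN had none. The SPRR2 genes are near-identical copies, so reads shared between them could have been lost to ambiguous mapping and their counts are uncertain.

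The same held for the enzymes that build the envelope. TGM1, the membrane-bound transglutaminase of the epidermis, had 37 reads in all, TGM5 had 13 and TGM3 had none. Of the adhesion proteins DSC1 had 7 reads and CDSN, the corneodesmosome protein, had none. KLK11 and KLK13 had 10 and 38 reads, and the inhibitors PI3 and A2ML1 had 10 and 40. The calmodulin-like proteins CALML3 and CALML5 had 8 and 11 reads.

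The remaining genes under the mean were SBSN with 17 reads, KRTDAP with 14, SLURP1 with 1, MAL with 2, ALOX12B with 44 and GRHL3 with 42. Together, the 25 genes under the mean drew between 14 and 33 reads in a library. Sums were 29, 30 and 30 in sgNeg, 23, 18 and 23 in sgPRMT5-1, and 27, 17 and 18 in sgPRMT5-2. They were 25, 25 and 24 in sgWDR77-1 and 14, 22 and 33 in sgWDR77-2. The highest count of any of these genes in a library was 8. They were set apart by a mean over all 15 libraries, guides included, so their low counts with the guides follow from the filter. No test was made on them.

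The filter fell within a run of close values. FLG, DSG1 and SPRR1A lay just inside it with mean counts of 3.07, 3.13 and 3.27, and ALOX12B, GRHL3 and A2ML1 just outside with 2.93, 2.80 and 2.67. Among the 25 tested genes, 7 had a mean under 10 and 5 lay between 10 and 100. KLK6, PPL and ELF3 had the highest means, 2002, 1131 and 1027.

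**Figure D1:**
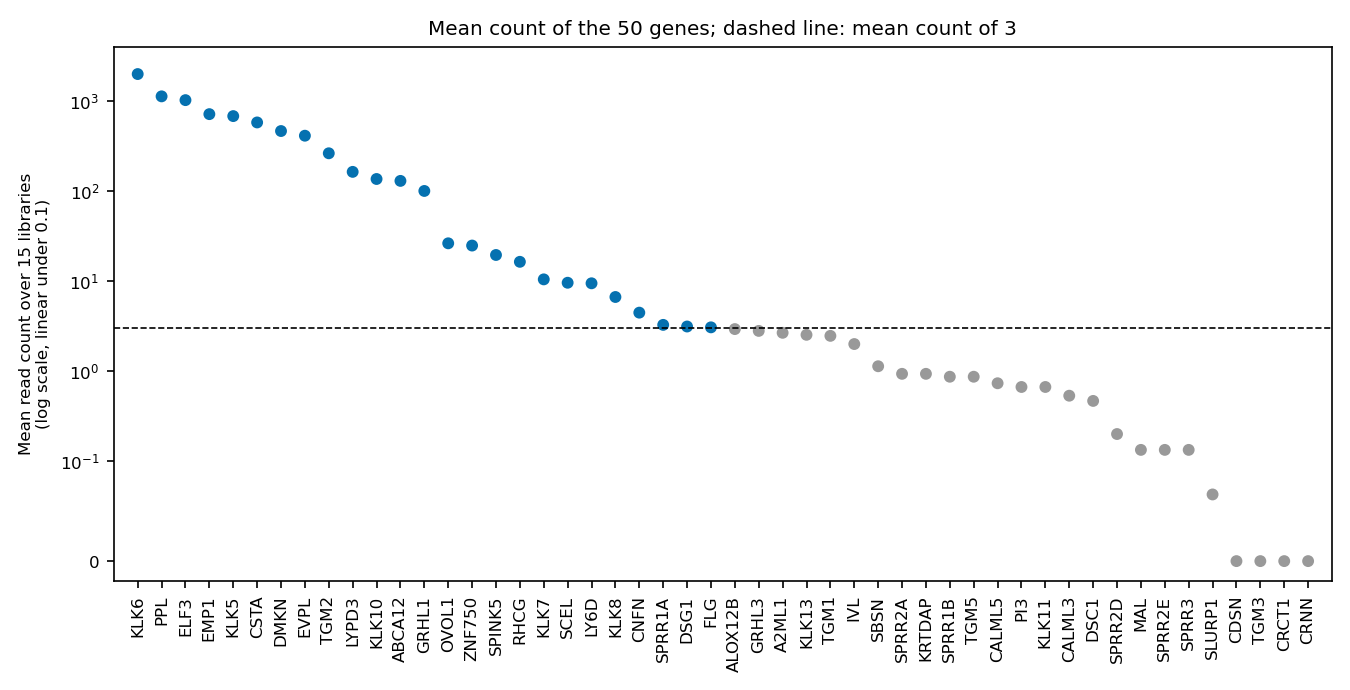
Mean read count over 15 libraries (log scale, linear under 0.1) of each of the 50 genes, in descending order; the dashed line marks a mean count of 3. The 25 genes in blue lie above it, from KLK6 at 2002 down to FLG at 3.07, and 4 of the 25 in grey are at 0.

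Levels between genes were compared per kilobase of annotated exon, as mean CPM per kb in sgNeg. KLK6 led with 184 CPM per kb, followed by KLK5 with 73.5 and the cysteine protease inhibitor CSTA with 66.7. The epithelial transcription factor ELF3 followed at 31.7, periplakin (PPL) at 26.5 and the membrane protein EMP1 at 17.0 CPM per kb. At the low end, desmoglein 1 (DSG1) and filaggrin (FLG) both stood near 0.02 CPM per kb, at 0.0232 and 0.0224. So the highest levels belonged to 2 kallikreins, an inhibitor, a regulator, a plakin and a membrane protein, while the late precursors were scarce.

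The 50 genes together took 0.154%, 0.149% and 0.152% of gene reads in sgNeg. They took 0.137%, 0.132% and 0.133% in sgPRMT5-1 and 0.116%, 0.117% and 0.116% in sgPRMT5-2. In sgWDR77-1 the shares were 0.140%, 0.149% and 0.146%, and in sgWDR77-2 0.143%, 0.149% and 0.144%. The libraries of the PRMT5 guides lay below all controls, and those of the WDR77 guides reached only the low end of the controls. KLK6 alone made up 24.6% of these reads in sgNeg, with ELF3 at 15.4% and PPL at 13.8%.

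Genes were called where the limma voom p, adjusted by Benjamini-Hochberg over all 14077 tested genes, lay under 0.05. All guides were compared with the same 3 sgNeg libraries, so those 4 comparisons were not independent. Against sgNeg, sgPRMT5-1 lowered 2 of the 25 genes (8%) and raised none, where 1.61% of all tested genes were called lower and 1.26% higher. sgPRMT5-2 lowered 7 of 25 (28%) and raised none, where 14.7% of all genes were called lower and 16.3% higher.

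sgWDR77-1 lowered 2 of 25 (8%) and raised 2 (8%), where 5.9% of all genes were called lower and 3.57% higher. Counts this small lie close to that background. sgWDR77-2 lowered 3 of 25 (12%) and raised none, where 2.97% of all genes were called lower and 1.81% higher.

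Between guides, sgPRMT5-2 lay below sgPRMT5-1 for 3 of 25 genes (12%) and above it for none, where 3.97% of all genes were lower and 3.55% higher. Between sgWDR77-2 and sgWDR77-1 limma voom called 0 of 25, where 1.84% of all genes were higher and 0.561% lower. At an unadjusted p under 0.05 limma voom gave 2 genes there, limma-trend with adjustment gave 0 and voom with quality weights gave 3. The mean of the PRMT5 guides lay below the mean of the WDR77 guides for 7 of 25 genes (28%) and above it for none, where 11.4% of all genes were lower and 15.7% higher.

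**Figure D2:**
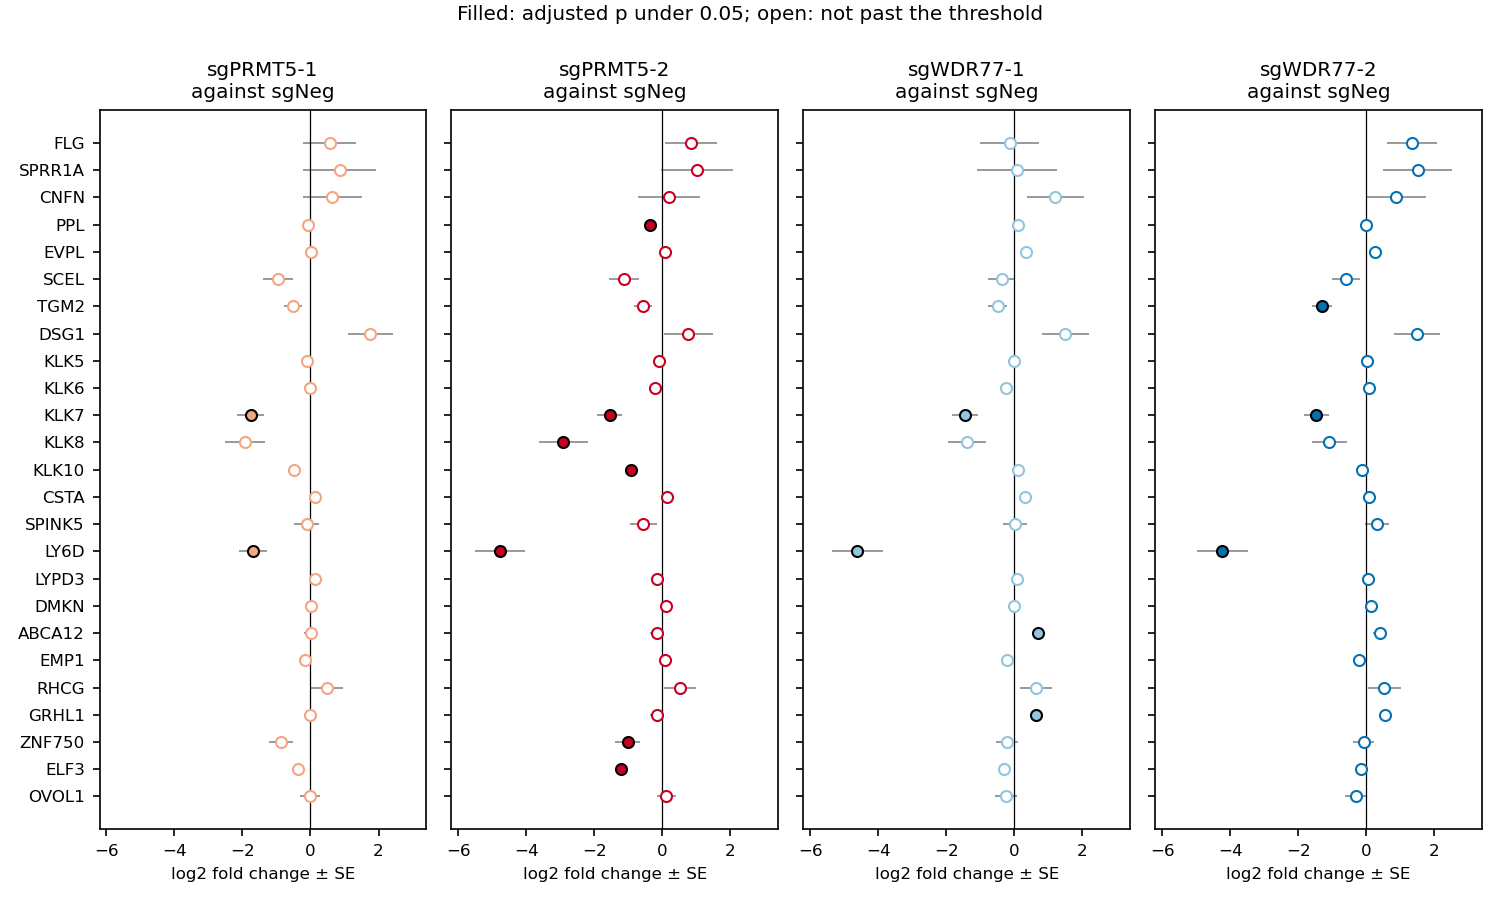
log2 fold change against sgNeg with its SE (x axis) for the 25 tested genes (y axis, ordered by role), in a panel for each guide; filled points passed an adjusted p of 0.05. LY6D and KLK7 are filled in all 4 panels, and sgPRMT5-2 has 7 filled points, all below 0.

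Among the secreted and Ly6-family proteins, LY6D changed most. LY6D is a lipid-anchored surface protein of keratinocytes, encoded on chromosome 8. It had 35, 27 and 35 reads in sgNeg and 20, 9 and 5 reads in sgPRMT5-1. It had 0, 1 and 2 reads in sgPRMT5-2, 0, 2 and 1 in sgWDR77-1 and 2, 0 and 3 in sgWDR77-2. Every library of every targeting guide lay below every control, and 9 libraries held no more than 3 reads.

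Over the pooled libraries the sgNeg level of LY6D was 2.98 times that in sgPRMT5-1 (exact 95% counting interval 2.00 to 4.54). The ratio was 33.7 for sgPRMT5-2 (11.2 to 166), 30.1 for sgWDR77-1 (9.999 to 149) and 18.2 for sgWDR77-2 (7.53 to 57.3). These intervals cover counting error only, and the upper ends are loose since 3, 3 and 5 reads carried the lower level. The fitted log2 fold change was -1.70 (SE 0.42, limma voom adjusted p = 0.0273) for sgPRMT5-1 and -4.78 (SE 0.74, limma voom adjusted p = 5.73e-05) for sgPRMT5-2. It was -4.62 (SE 0.74, limma voom adjusted p = 0.000393) for sgWDR77-1 and -4.23 (SE 0.74, limma voom adjusted p = 0.00115) for sgWDR77-2.

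With sgPRMT5-1 the call was lost in 6 of 14 alternatives, while the estimate stayed between -2.19 and -1.32. Its limma voom adjusted p was 0.0748 without sgNeg replicate 1, 0.0651 without sgNeg replicate 3, 0.114 without sgPRMT5-1 replicate 2 and 0.189 without sgPRMT5-1 replicate 3. It was 0.0583 with no filter, and the limma-trend adjusted p was 0.0746. Over 14 alternatives the adjusted p ranged from 0.0130 to 0.189. Ranges over alternatives, here and below, include the limma-trend fit. With the other 3 guides LY6D stayed under 0.05 in all 14 alternatives, with estimates from -5.33 to -3.56 for sgPRMT5-2, -5.15 to -3.53 for sgWDR77-1 and -4.84 to -3.27 for sgWDR77-2. sgPRMT5-2 also lay below sgPRMT5-1, by -3.08 (SE 0.80, limma voom adjusted p = 0.0206).

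That call was lost on leaving out any 1 of 4 libraries, while the estimate stayed between -3.62 and -1.99 over 14 alternatives. The adjusted p from limma voom was 0.106 without sgPRMT5-1 replicate 1, 0.0508 without sgPRMT5-1 replicate 2, 0.145 without sgPRMT5-2 replicate 1 and 0.0782 without sgPRMT5-2 replicate 2, in a range of 0.000289 to 0.145 over 14 alternatives. The other measured proteins of this role did not pass the test against sgNeg. LYPD3, a relative of LY6D, ranged from 21.8 to 34.0 CPM over all libraries. Dermokine (DMKN), a secreted suprabasal protein, ranged from 74.6 to 92.04 CPM.

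Of the 7 kallikreins, serine proteases encoded in a cluster on chromosome 19, 5 were tested. In order along hg38 (GENCODE release 44) they were KLK5 at chr19:50943303-50953093, KLK6 at chr19:50958631-50969673, KLK7 at chr19:50976468-50984099, KLK8 at chr19:50996007-51002711 and KLK10 at chr19:51012739-51020175, all on the minus strand. KLK5 and KLK7 are the main proteases that cleave corneodesmosomes. The stretches before the starts of these kallikreins are shown since neighbours in this cluster differed in which guides they were called with. Differences between these genes were not tested. KLK8 is not shown, since no RefSeq start was at hand for it.

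The sequences below come from RefSeq (GRCh38.p14, minus strand, 5′ to 3′) and hold the part of the 250 bases before each RefSeq start that lies in no GENCODE exon. They span chr19:50953094-50953288 for KLK5, chr19:50969674-50969841 for KLK6, chr19:50984100-50984167 for KLK7 and chr19:51020027-51020067 for KLK10. Capitals mark a match to GGAAGT or its reverse complement, the core bound by ETS-family factors such as ELF3.
KLK5: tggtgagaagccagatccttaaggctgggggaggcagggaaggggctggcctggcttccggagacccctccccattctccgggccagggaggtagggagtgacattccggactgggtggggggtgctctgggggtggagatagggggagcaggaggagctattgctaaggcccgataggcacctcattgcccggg
KLK6: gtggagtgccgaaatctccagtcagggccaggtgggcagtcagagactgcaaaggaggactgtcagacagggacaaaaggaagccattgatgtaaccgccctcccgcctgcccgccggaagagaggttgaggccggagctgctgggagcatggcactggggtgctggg
KLK7: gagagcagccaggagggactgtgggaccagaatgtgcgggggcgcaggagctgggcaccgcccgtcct
KLK10: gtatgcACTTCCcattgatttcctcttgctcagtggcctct

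RefSeq starts were at hand for 16 of the 25 tested genes. GGAAGT was found on either strand in the 250 bases of 2 of the 16, KLK10 and FLG, and in 19.5% of all 35116 promoters of that length. TGANTCA, the AP-1 site, was found in 4 of 16 (FLG, SPRR1A, EMP1 and SCEL) and in 6.57% of all. AACCNGTT, the GRHL site, was found in SPINK5 alone of the 16 and in 1.49% of all. TATAA, searched after the sequences were seen, was found in 8 of 16 and in 18.9% of all, with matches 27 bases before the start of KLK7 and 28 before that of KLK5. A match is a description of letters in this window and not evidence of binding.

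KLK7 fell with every guide. It had 15, 32 and 23 reads in sgNeg, 9, 6 and 5 in sgPRMT5-1 and 7, 8 and 8 in sgPRMT5-2. In sgWDR77-1 it had 6, 9 and 7 reads, and in sgWDR77-2 7, 9 and 6. The lowest control library lay above all 12 libraries of the targeting guides, which overlapped each other.

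KLK7 had a log2 fold change of -1.76 (SE 0.39, limma voom adjusted p = 0.0138) for sgPRMT5-1 and -1.55 (SE 0.37, limma voom adjusted p = 0.00325) for sgPRMT5-2. It was -1.46 (SE 0.38, limma voom adjusted p = 0.0176) for sgWDR77-1 and -1.47 (SE 0.38, limma voom adjusted p = 0.0247) for sgWDR77-2. Only the call with sgPRMT5-2 stayed under 0.05 in all 15 alternatives.

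For sgPRMT5-1 the limma voom adjusted p of KLK7 was 0.0514 without sgNeg replicate 2, 0.0720 without sgPRMT5-1 replicate 2 and 0.0921 without sgPRMT5-1 replicate 3, in a range of 0.00517 to 0.0921. For sgWDR77-1 it was 0.0553 without sgNeg replicate 2, 0.0510 without sgNeg replicate 3, 0.0574 without sgWDR77-1 replicate 1 and 0.111 in a fit of the compared conditions alone, in a range of 0.00477 to 0.111. For sgWDR77-2 it was 0.0885 without sgNeg replicate 2, 0.0552 without sgNeg replicate 3, 0.0806, 0.0670 and 0.0870 without sgWDR77-2 replicate 1, 2 and 3, and 0.0618 in a separate fit, in a range of 0.00633 to 0.0885. The estimate kept its sign in each of these fits.

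KLK8, which is active in the upper epidermis, had 19, 14 and 11 reads in sgNeg. It had 9, 1 and 4 in sgPRMT5-1, 6, 2 and 0 in sgPRMT5-2, 3, 6 and 6 in sgWDR77-1 and 7, 4 and 8 in sgWDR77-2. All 12 libraries of the guides lay below the lowest control, but KLK8 passed the test with sgPRMT5-2 alone. There the log2 fold change was -2.91 (SE 0.72, limma voom adjusted p = 0.00406). The estimate was -1.96 without sgPRMT5-2 replicate 3, which had 0 reads, -3.77 without replicate 1 and -2.06 with limma-trend, and the call was kept in all 14 alternatives. The pooled sgNeg level was 5.73 times that in sgPRMT5-2 (exact 95% counting interval 2.67 to 14.1). The same ratio was 3.28 for sgPRMT5-1 (1.77 to 6.48), 2.73 for sgWDR77-1 (1.49 to 5.28) and 2.17 for sgWDR77-2 (1.24 to 3.94). These intervals cover counting error only. Tested directly, sgPRMT5-2 did not differ from sgPRMT5-1 past the threshold (-0.99, SE 0.84, limma voom adjusted p = 0.505). The adjusted p from limma voom was 0.0875, 0.122 and 0.250 for sgPRMT5-1, sgWDR77-1 and sgWDR77-2. KLK8 shares 40.1% of its exon bases with an annotated same-strand gene listed at 0 reads, where reads could be set aside as ambiguous, so its level is uncertain.

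KLK10 stood at 26.6, 30.9 and 26.7 CPM in sgNeg, at 23.8, 18.7 and 17.3 CPM in sgPRMT5-1 and at 16.2, 14.6 and 13.7 CPM in sgPRMT5-2. It stood at 26.4, 34.1 and 30.1 CPM in sgWDR77-1 and at 21.4, 29.1 and 27.0 CPM in sgWDR77-2. The libraries of both PRMT5 guides lay below the controls, while those of the WDR77 guides overlapped them. The log2 fold change was -0.91 (SE 0.16, limma voom adjusted p = 0.000213) for sgPRMT5-2. With sgPRMT5-1 the estimate was -0.50 and did not pass the limma voom test (adjusted p = 0.0830).

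KLK5 and KLK6, the most abundant kallikreins per kilobase, did not pass the test against sgNeg with any guide. KLK5 averaged 122 ± 11.9 CPM (SD, n = 3) in sgNeg and between 113 and 123 CPM with the 4 guides. KLK6 averaged 364 ± 28.04 CPM (SD, n = 3) in sgNeg and between 306 and 388 CPM with the guides. The KLK6 libraries of sgPRMT5-2 and sgWDR77-1 lay below all controls, with estimates of -0.21 and -0.25, and those of sgPRMT5-1 and sgWDR77-2 overlapped the controls. Within the cluster, KLK7 was called lower with all 4 guides, KLK8 and KLK10 with sgPRMT5-2, and KLK5 and KLK6 with none.

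**Figure D3:**
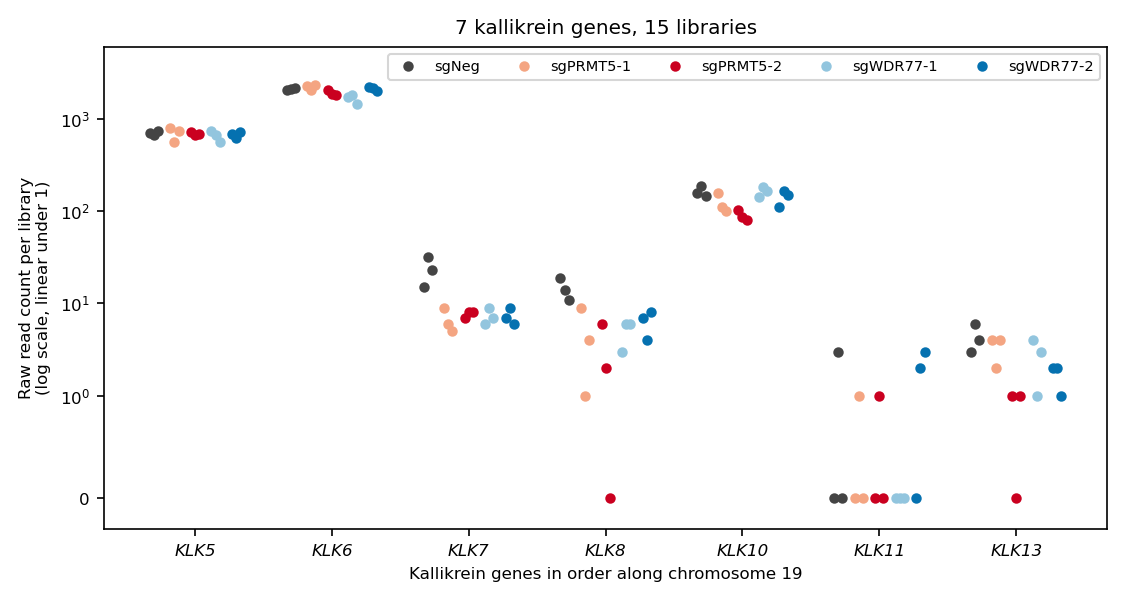
Raw read count per library (log scale, linear under 1) of the 7 kallikrein genes in order along chromosome 19; each point is a library, colored by condition. The 3 sgNeg libraries lie above all 12 others for KLK7 and KLK8, those of KLK6 above the 3 of sgPRMT5-2 and of sgWDR77-1, and KLK11 and KLK13 have at most 3 and 6 reads.

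Among the transcription factors, ELF3 showed the most precise change. ELF3, an ETS-family factor of epithelial differentiation at chr1:202007945-202017183, stood at 235, 210 and 239 CPM in sgNeg, at 186, 178 and 169 CPM in sgPRMT5-1 and at 98.6, 95.5 and 99.998 CPM in sgPRMT5-2. In sgWDR77-1 it stood at 144, 205 and 213 CPM, and in sgWDR77-2 at 201, 216 and 192 CPM. The sgPRMT5-2 libraries lay below all 12 others, and sgPRMT5-1 lay between them and the controls. Within sgWDR77-1, replicate 1 was the low library.

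ELF3 had a log2 fold change of -1.21 (SE 0.12, limma voom adjusted p = 1.43e-07) for sgPRMT5-2 against sgNeg, and it stayed called in all 15 alternatives. With sgPRMT5-1 it was -0.36 and did not pass the limma voom test (adjusted p = 0.0929). The guides differed from each other by -0.86 (SE 0.12, limma voom adjusted p = 6.93e-05), again in all 15 alternatives. The PRMT5 guides lay below the WDR77 guides by -0.55 (SE 0.08, limma voom adjusted p = 4.96e-05), although sgWDR77-1 replicate 1 lay below the 3 libraries of sgPRMT5-1. The ELF3 mean was 98.0 CPM in sgPRMT5-2 and 178 CPM in sgPRMT5-1, against 187 CPM in sgWDR77-1 and 203 CPM in sgWDR77-2. The difference between targets thus lay mainly in sgPRMT5-2.

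ZNF750, a zinc-finger factor that promotes terminal differentiation, had 36, 31 and 29 reads in sgNeg, 19, 13 and 24 in sgPRMT5-1 and 10, 19 and 23 in sgPRMT5-2. It had 16, 25 and 41 reads in sgWDR77-1 and 26, 23 and 38 in sgWDR77-2. The libraries of the PRMT5 guides lay below the controls, and those of the WDR77 guides overlapped them. The log2 fold change was -1.02 (SE 0.36, limma voom adjusted p = 0.0359) for sgPRMT5-2. Averaged over guides, ZNF750 was lower with PRMT5 than with WDR77 guides by -0.80 (SE 0.26, limma voom adjusted p = 0.0265).

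The ZNF750 call with sgPRMT5-2 was lost on leaving out any 1 of 5 libraries, and that between targets on leaving out any 1 of 4, while the estimate stayed between -1.31 and -0.63 for sgPRMT5-2 and between -0.98 and -0.61 between targets over all alternatives. The smallest estimates, -0.63 and -0.61, came without sgPRMT5-2 replicate 1. For sgPRMT5-2 the limma voom adjusted p was 0.0953, 0.0567 and 0.0521 without sgNeg replicate 1, 2 and 3, 0.223 and 0.0572 without sgPRMT5-2 replicate 1 and 2, and 0.0717 with no filter, in a range of 0.00853 to 0.223 over 15 alternatives. Between the PRMT5 and WDR77 guides it was 0.0615 without sgPRMT5-1 replicate 2, 0.0900 without sgPRMT5-2 replicate 1, 0.0723 without sgWDR77-1 replicate 3, 0.0797 without sgWDR77-2 replicate 3 and 0.0545 with no filter, in a range of 0.00276 to 0.0900 over 21 alternatives. ZNF750 shares 7.03% of its exon bases with TBCD on the opposite strand, which had a mean count of 682 against 24.9, so without knowing how strand was used its reads could include some from TBCD.

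GRHL1, a grainyhead-family factor, was called higher with sgWDR77-1. It stood at 17.4, 14.1 and 12.9 CPM in sgNeg, at 20.7, 20.5 and 27.9 CPM in sgWDR77-1 and at 17.9, 20.7 and 27.2 CPM in sgWDR77-2. With the PRMT5 guides it ranged from 11.7 to 15.8 CPM. Both WDR77 guides lay above all controls, and the PRMT5 guides overlapped the controls.

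GRHL1 had a log2 fold change of 0.63 (SE 0.18, limma voom adjusted p = 0.0282) for sgWDR77-1, while sgWDR77-2 gave 0.55 (limma voom adjusted p = 0.0766). For sgWDR77-1 the limma voom adjusted p was 0.0827 without sgNeg replicate 2, 0.157 without sgNeg replicate 3, 0.101 without sgWDR77-1 replicate 3, 0.0617 with no filter and 0.0893 in a separate fit, in a range of 0.0142 to 0.157 over 15 alternatives. The PRMT5 guides lay below the WDR77 guides by -0.67 (SE 0.13, limma voom adjusted p = 0.000513), and this held in all 21 alternatives. OVOL1, a zinc-finger repressor in the differentiation program, ranged from 2.59 to 7.15 CPM and was not called in any comparison.

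ABCA12, the transporter that loads lipid into lamellar granules, followed a like order. It stood at 21.3, 16.1 and 21.2 CPM in sgNeg, at 38.6, 23.0 and 33.9 CPM in sgWDR77-1 and at 24.8, 27.0 and 24.3 CPM in sgWDR77-2. With the PRMT5 guides it ranged from 14.8 to 22.1 CPM. All 6 libraries of the WDR77 guides lay above the 3 controls and above the 6 libraries of the PRMT5 guides.

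ABCA12 had a log2 fold change of 0.68 (SE 0.18, limma voom adjusted p = 0.0166) for sgWDR77-1 and 0.39 for sgWDR77-2, which did not pass the limma voom test (adjusted p = 0.233). For sgWDR77-1 the limma voom adjusted p was 0.0828 without sgNeg replicate 2, 0.0525 without sgWDR77-1 replicate 1, 0.123 with quality weights and 0.0951 in a separate fit, in a range of 0.00139 to 0.123 over 15 alternatives. The estimates in those 4 fits were 0.55, 0.54, 0.36 and 0.71. The PRMT5 guides lay below the WDR77 guides by -0.62 (SE 0.13, limma voom adjusted p = 0.00117), in all 21 alternatives.

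**Figure D4:**
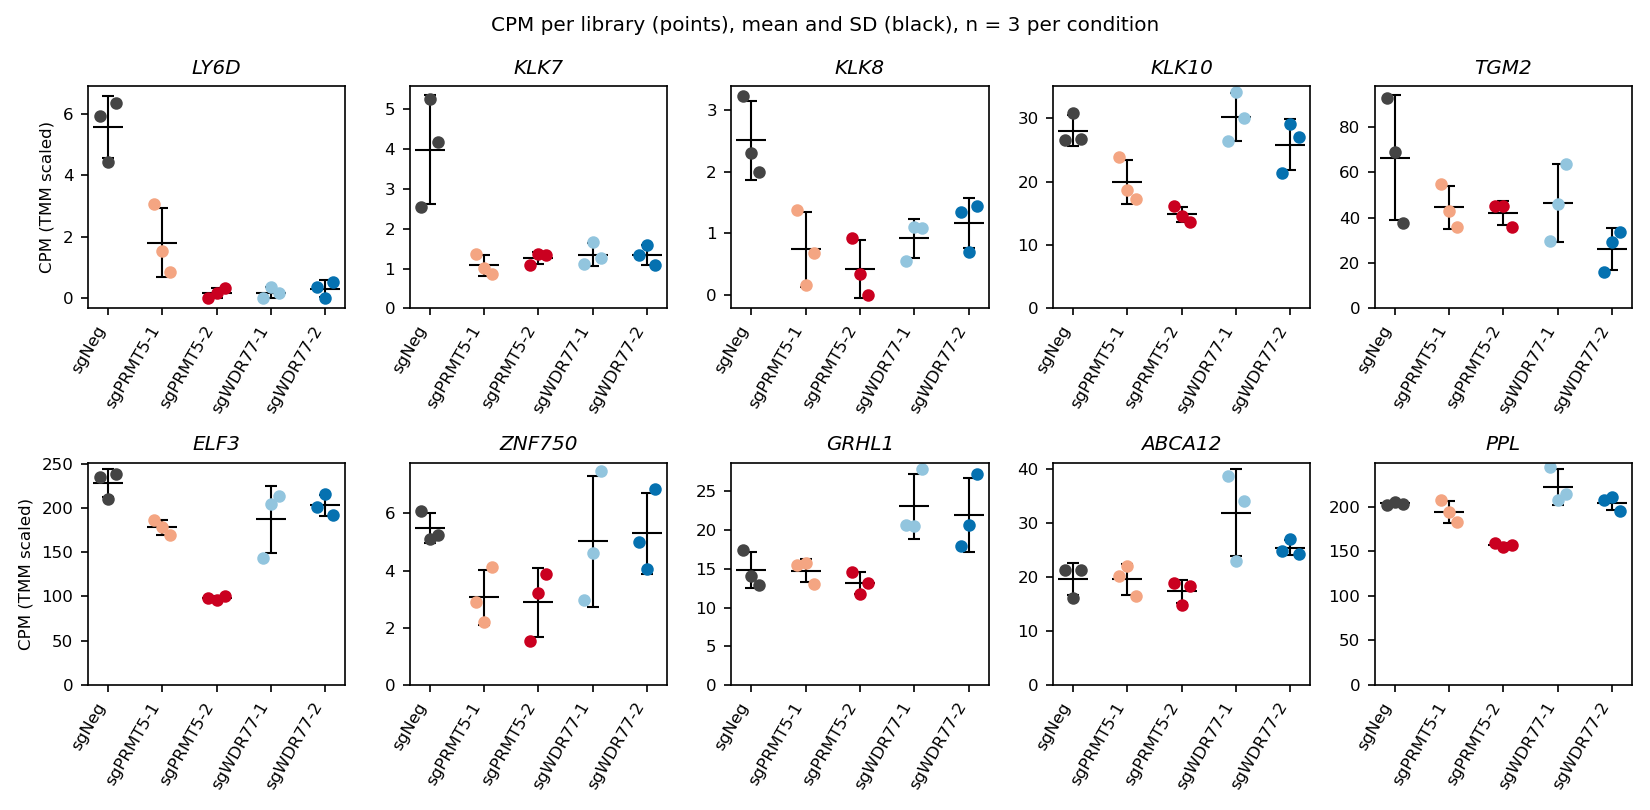
CPM per library (points, y axis from 0 or below) with mean and SD (black, n = 3) by condition for 10 genes called in some comparison. The sgPRMT5-2 libraries of ELF3 sit between 95.5 and 99.998 CPM, below all others, and the WDR77 guides of ABCA12 and GRHL1 sit above all controls.

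Among envelope scaffold proteins, periplakin (PPL) was lower with sgPRMT5-2. PPL stood at 202, 206 and 203 CPM in sgNeg, at 207, 195 and 182 CPM in sgPRMT5-1 and at 160, 155 and 157 CPM in sgPRMT5-2. In sgWDR77-1 it stood at 245, 207 and 214 CPM, and in sgWDR77-2 at 208, 210 and 195 CPM. The sgPRMT5-2 libraries lay below all 12 others and close together. The log2 fold change was -0.38 (SE 0.09, limma voom adjusted p = 0.00222), in all 15 alternatives.

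Against sgPRMT5-1 the difference in PPL was -0.31 (SE 0.09, limma voom adjusted p = 0.0311). Its limma voom adjusted p was 0.162 and 0.0984 without sgPRMT5-1 replicate 1 and 2, 0.0914, 0.106 and 0.0897 without sgPRMT5-2 replicate 1, 2 and 3, and 0.103 with upper quartile scaling, in a range of 0.000201 to 0.162 over 15 alternatives. Averaged over guides, PPL was lower with PRMT5 than with WDR77 guides by -0.28 (SE 0.06, limma voom adjusted p = 0.00158), in all 21 alternatives. Their ranges overlapped through sgPRMT5-1.

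Envoplakin (EVPL), the partner of periplakin, averaged 64.9 ± 5.07 CPM (SD, n = 3) in sgNeg, 65.7 ± 0.261 in sgPRMT5-1 and 68.5 ± 5.60 in sgPRMT5-2. It averaged 81.7 ± 9.72 CPM in sgWDR77-1 and 78.4 ± 9.23 CPM in sgWDR77-2. Averaged over guides, EVPL was lower with PRMT5 than with WDR77 guides by -0.25 (SE 0.08, limma voom adjusted p = 0.0224), in all 21 alternatives and with overlapping ranges. Against sgNeg EVPL was not called with any guide.

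The other 4 tested envelope proteins were scarce and not called. Sciellin (SCEL) had 16, 8 and 22 reads in sgNeg and between 4 and 11 in the other libraries, which overlapped sgNeg replicate 2. FLG had at most 6 reads, SPRR1A at most 9 and cornifelin (CNFN) at most 12 in a library. DSG1, the desmosomal cadherin of upper layers, had 1 read in each sgNeg library and between 1 and 7 in the others, with sgPRMT5-1, sgWDR77-1 and sgWDR77-2 above all controls. At so few reads its limma voom adjusted p lay between 0.159 and 0.447 over the 4 guides.

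TGM2, a transglutaminase found in many tissues, was the tested member of that family. It stood at 92.8, 68.7 and 37.7 CPM in sgNeg, at 54.8, 42.8 and 35.8 CPM in sgPRMT5-1 and at 45.1, 45.0 and 35.9 CPM in sgPRMT5-2. It stood at 29.7, 45.9 and 63.7 CPM in sgWDR77-1 and at 16.0, 29.15 and 33.7 CPM in sgWDR77-2. The controls spread widely, and only the sgWDR77-2 libraries all lay below them.

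TGM2 had a log2 fold change of -1.31 (SE 0.30, limma voom adjusted p = 0.0112) for sgWDR77-2. Its limma voom adjusted p was 0.0732 without sgNeg replicate 1, 0.0517 without sgNeg replicate 2 and 0.0944 without sgWDR77-2 replicate 1, in a range of 0.000756 to 0.0944 over 15 alternatives. The estimates in those 3 fits were -1.05, -1.25 and -1.02. TGM2 shares 4.98% of its exon bases with RPRD1B on the opposite strand.

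Inhibitors and membrane proteins were not called in any comparison. CSTA averaged 91.1 ± 10.5 CPM (SD, n = 3) in sgNeg and between 97.3 and 113 CPM with the guides. SPINK5, the inhibitor of epidermal kallikreins, averaged 3.57 ± 1.63 CPM (SD, n = 3) in sgNeg and between 2.43 and 4.35 CPM with the guides. EMP1 averaged 133 ± 10.7 CPM (SD, n = 3) in sgNeg and between 114 and 139 CPM with the guides. The ammonium transporter RHCG had between 9 and 40 reads, and the highest value came from sgWDR77-1 replicate 3.

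**Figure D5:**
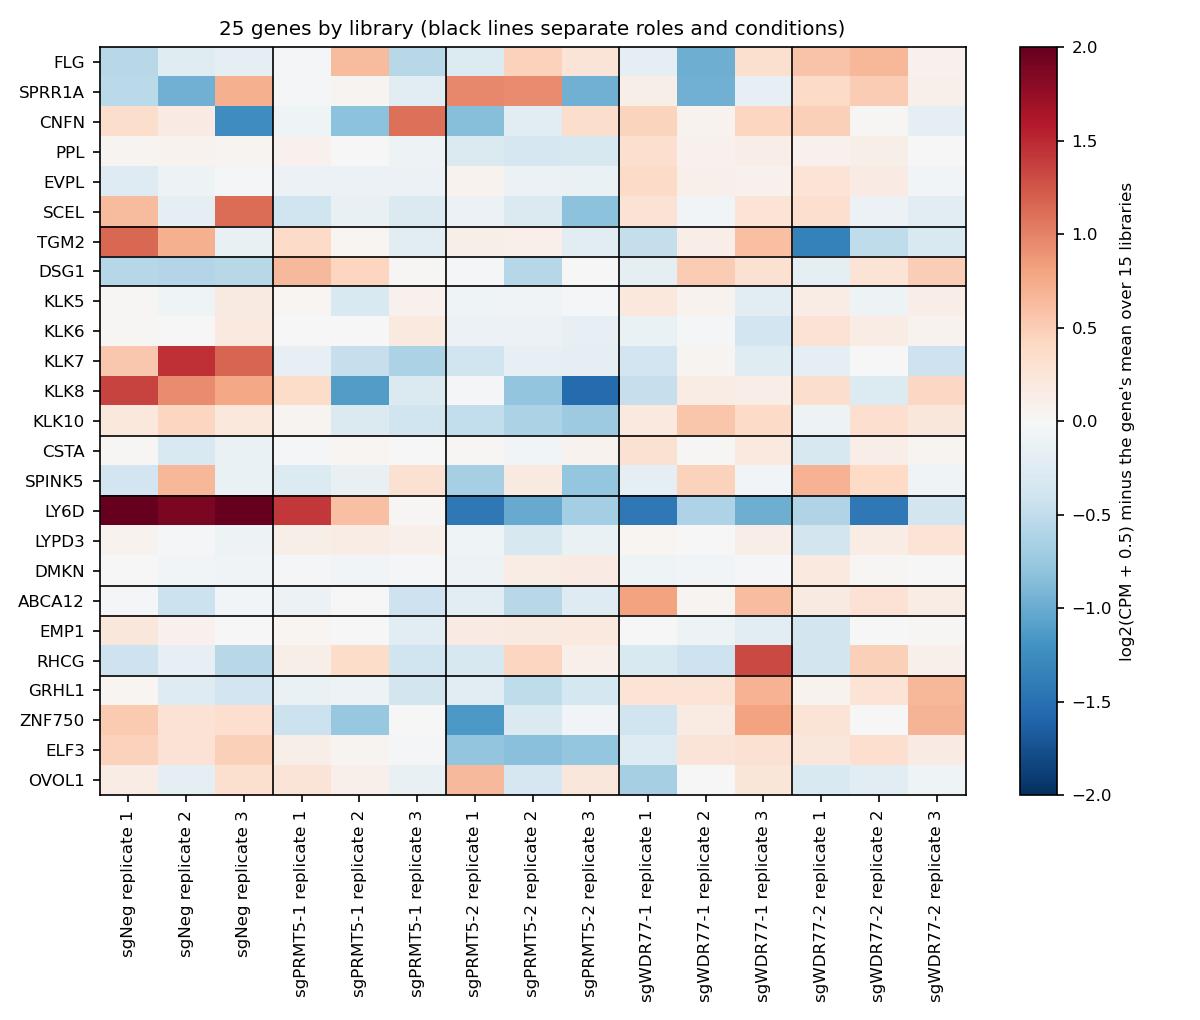
log2(CPM + 0.5) of the 25 tested genes (rows, grouped by role) in each of 15 libraries (columns, grouped by condition), minus the gene's mean over the libraries; red is higher, blue lower. LY6D, KLK7 and KLK8 are red in the 3 sgNeg libraries, and ELF3 is bluest in the 3 sgPRMT5-2 libraries.

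By comparison, sgPRMT5-1 against sgNeg was the PRMT5 comparison with fewer genes called, although the PRMT5 message was at -0.67 here and at -0.45 with sgPRMT5-2. The PRMT5 message was not called between those 2 guides (limma voom adjusted p = 0.330). LY6D and KLK7 were lower, both with the values above, and the median log2 fold change of the 25 genes was -0.01 beside 0.02 over all genes. Leaving out sgNeg replicate 1, 2 or 3 left 1 gene called, and leaving out sgPRMT5-1 replicate 2 or 3 left 0. The background moved too, from 404 of all genes called to 213 and 243 without sgNeg replicate 1 and 2, 167 and 114 without sgPRMT5-1 replicate 2 and 3, and 820 with quality weights. On library totals alone 27.2% of all called genes were higher, against 43.8% with TMM. None of 8 tested further cornification genes passed the limma voom test. Of 25 tested regulators of keratinocyte differentiation, 2 were higher and 3 lower, beside 1.26% and 1.61% of all genes, with SOX2 at -1.21 (SE 0.22), NOTCH3 at -0.59 (SE 0.12), NOTCH2 at 0.34 (SE 0.08) and HES1 at -0.54 (SE 0.14). Of 17 tested basal keratinocyte genes, 1 was higher and 4 lower beside the same shares, led by KRT15 at -3.06 (SE 0.26) and KRT5 at -1.27 (SE 0.14).

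sgPRMT5-2 against sgNeg had the most genes called of the 4 guides. LY6D, KLK7, KLK8, KLK10, ELF3, ZNF750 and PPL were lower, and the median log2 fold change of the 25 genes was -0.16 beside 0.01 over all genes. Without each library in turn between 6 and 8 genes were called. On library totals 37.9% of all called genes were higher, and with upper quartile scaling 63.0%, against 52.7% with TMM. Of 8 tested further cornification genes, out of 61 found in the files, 2 were higher and 1 lower, beside 16.3% and 14.7% of all genes. The keratin KRT80 was higher by 0.81 (SE 0.15) and NIPAL4 was at -1.29 (SE 0.39).

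ALOXE3, a lipoxygenase of the barrier lipid pathway, was the other higher gene, at 2.44 (SE 0.71) with a mean of 0.393 CPM in sgNeg and 1.54 CPM in sgPRMT5-2. Of the 25 tested regulators, 4 were higher and 10 lower, beside the same 16.3% and 14.7% of all genes. NOTCH3 was at -1.53 (SE 0.13), SOX2 at -2.35 (SE 0.28), the AP-1 subunit FOSL1 at 1.69 (SE 0.14) and PPARD at 0.71 (SE 0.11). Of the 17 basal genes, 6 were higher and 6 lower beside those shares, with KRT5 at -3.53 (SE 0.16), KRT15 at -4.33 (SE 0.34) and the laminin receptor BCAM at -1.52 (SE 0.12).

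sgWDR77-1 against sgNeg lowered LY6D and KLK7 and raised ABCA12 and GRHL1. The median log2 fold change of the 25 genes was -0.01, as over all genes. Without sgNeg replicate 2, 1 gene was called, and without sgWDR77-1 replicate 1, 2 were called, with LY6D still among them. Of all genes 1333 were called, against 679 without sgNeg replicate 3, 367 in separate fits and 2149 with quality weights. With upper quartile scaling 52.1% of all called genes were higher, against 37.7% with TMM. Of the 8 further cornification genes 1 was lower, NIPAL4 at -1.59 (SE 0.43), where 5.9% of all genes were lower and 3.57% higher, shares that also stand beside the next counts. Of the 25 regulators 2 were lower, NOTCH1 at -0.55 (SE 0.12) and SOX2 at -0.86 (SE 0.21). Of the 17 basal genes 2 were higher and 3 lower, with KRT5 at -4.02 (SE 0.17) and DST at 0.54 (SE 0.11).

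sgWDR77-2 against sgNeg lowered LY6D, KLK7 and TGM2. The median log2 fold change of the 25 genes was 0.04, beside 0.02 over all genes. Without sgNeg replicate 2 or without sgWDR77-2 replicate 1, 1 gene was called. Of all genes 673 were called, against 445 without sgNeg replicate 1, 417 and 392 without sgWDR77-2 replicate 1 and 2, and 1395 with quality weights. Of the 8 further cornification genes NIPAL4 was lower, at -2.04 (SE 0.47), where 2.97% of all genes were lower and 1.81% higher, as for the next counts. Of the 25 regulators 2 were lower, KLF5 at -0.69 (SE 0.15) and SOX2 at -0.97 (SE 0.22). Of the 17 basal genes 1 was higher and 5 lower, with KRT5 at -2.82 (SE 0.15) and KRT15 at -1.48 (SE 0.22).

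The guides against the same gene were compared to see where they differed. sgPRMT5-2 lay below sgPRMT5-1 for LY6D, ELF3 and PPL, with a median over the 25 genes of -0.16 beside -0.01 over all genes. Leaving out sgPRMT5-1 replicate 1 or 2, or sgPRMT5-2 replicate 1 or 2, left 1 gene called. Of all genes 1059 were called, against 336, 452 and 1649 without sgPRMT5-1 replicate 1, 2 and 3, and 449, 465 and 477 without sgPRMT5-2 replicate 1, 2 and 3. With separate fits 2665 were called and with quality weights 4108. With upper quartile scaling 59.2% of all called genes were higher, against 47.2% with TMM. None of the 8 further cornification genes passed the limma voom test. Of the regulators 1 was higher and 3 lower, beside 3.55% and 3.97% of all genes, with FOSL1 at 1.19 (SE 0.14), NOTCH3 at -0.94 (SE 0.13), JUNB at -0.52 (SE 0.13) and SOX2 at -1.14 (SE 0.31). Of the basal genes 2 were higher and 3 lower beside the same shares, with KRT5 at -2.26 (SE 0.16), BCAM at -0.90 (SE 0.13) and LAMB3 at 0.77 (SE 0.12).

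Between sgWDR77-2 and sgWDR77-1 no gene of the 25 was called by limma voom, and estimates ran from -0.81 for TGM2 to 1.48 for FLG, the latter on at most 6 reads. Leaving out sgWDR77-1 replicate 1 gave 2 calls and leaving out sgWDR77-1 replicate 2 gave 1. Of all genes 338 were called, against 45 and 85 without sgWDR77-2 replicate 1 and 2, 218 on library totals, 15 in separate fits and 1186 with quality weights. On library totals 60.1% of all called genes were higher, against 76.6% with TMM. The cystatin CST6 was higher by 0.97 (SE 0.25), the only call among the 8 further cornification genes, where 1.84% of all genes were higher and 0.561% lower. None of the 25 regulators passed the limma voom test. KRT5 was higher by 1.19 (SE 0.18) and BCAM was at -0.61 (SE 0.12) among the basal genes.

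The last comparison set the 6 libraries of the PRMT5 guides against the 6 of the WDR77 guides. KLK10, ABCA12, GRHL1, ZNF750, PPL, EVPL and ELF3 were lower with the PRMT5 guides, and the median of the 25 genes was -0.19 beside 0.02 over all genes. Against sgNeg, ABCA12 was at 0.01 and -0.17 with sgPRMT5-1 and sgPRMT5-2, and at 0.68 and 0.39 with sgWDR77-1 and sgWDR77-2. In the same order GRHL1 was at -0.002, -0.16, 0.63 and 0.55, and EVPL at 0.02, 0.08, 0.33 and 0.27. Of these estimates only those of ABCA12 and GRHL1 with sgWDR77-1 were called. KLK10 differed by -0.69 (SE 0.11, limma voom adjusted p = 0.000113). LY6D was not called here, with an estimate of 1.19 (limma voom adjusted p = 0.180), and neither was KLK7, at -0.19 (limma voom adjusted p = 0.701). Of all genes 3812 were called, against 5823 with quality weights. On library totals 41.1% of all called genes were higher, against 57.8% with TMM.

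Of the 8 further cornification genes 2 were higher with the PRMT5 guides and 1 was lower, beside 15.7% and 11.4% of all genes, PADI3 at -0.70 (SE 0.19), with CST6 at 0.57 (SE 0.16) and KRT80 at 0.36 (SE 0.11). Of the 25 regulators 5 were higher and 6 lower beside the same shares, with FOSL1 at 1.03 (SE 0.10), NOTCH3 at -0.84 (SE 0.09), HES1 at -0.64 (SE 0.10) and GATA3 at -1.03 (SE 0.18). Of the 17 basal genes 7 were higher and 3 lower beside them, with KRT15 at -2.28 (SE 0.22) and the laminin chain LAMB3 at 0.86 (SE 0.08).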

How the data were processed

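Polyadenylated RNA of 15 HSC5 libraries (5 conditions, 3 each) was sequenced as single-end reads. The labels name a stranded mRNA kit and the study's methods a kit without strand marking, and the strand setting of the counting is not given in the sources used here. The authors deposited raw read counts per gene, made with STAR on hg38 and HTSeq per the submitters' notes. The rows for reads without a feature (2.75% to 7.16% of listed reads), ambiguous (7.09% to 7.93%) and not unique (9.49% to 13.1%) were left out of library sizes.

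Of 60649 genes, 14077 with a mean count of 3 or more were fitted in a single 5-group model by limma voom, using TMM factors (log-ratio trim 0.3, sum trim 0.05) and the versions limma 3.58.1 and R 4.3.3. Tests were two-sided, with Benjamini-Hochberg adjustment over all tested genes and a threshold of 0.05. Exon lengths came from GENCODE release 44 and promoter sequences from RefSeq. Members and lists were chosen with earlier results of these data known. Every tested member may be named, and full statistics go to the 6 called members with the largest change per comparison and to PRMT5 and WDR77. PPL with sgPRMT5-2 and EVPL between targets lie outside that rule and were chosen after their values were seen. Up to 4 called genes per further list are named. Alternatives changed the scaling, the filter, the test, the samples fitted and the replicate block, and left out each library.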

Additional observations from a re-analysis of the deposited data

Results flagged for a closer look

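10 differences between guides passed the limma voom test of the difference itself. Between the PRMT5 guides they were 3 of 25 genes, where 3.97% of all genes were lower and 3.55% higher. Between targets they were 7 of 25, where 11.4% of all genes were lower and 15.7% higher. Between the WDR77 guides 0 of 25 were called, where 1.84% of all genes were higher and 0.561% lower. sgPRMT5-2 lay below sgPRMT5-1 by -3.08 for LY6D, -0.86 for ELF3 and -0.31 for PPL on the log2 scale. The PRMT5 guides lay below the WDR77 guides by -0.69 for KLK10, -0.62 for ABCA12, -0.67 for GRHL1, -0.80 for ZNF750, -0.28 for PPL, -0.25 for EVPL and -0.55 for ELF3. The difference in ELF3 between targets lay mainly in sgPRMT5-2. For ABCA12, GRHL1 and EVPL the libraries of the PRMT5 guides overlapped the controls, and the estimates with both WDR77 guides lay above sgNeg. What sets the guides apart was not tested.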

How the results depend on the processing

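Each comparison was refitted with RLE, upper quartile or library-total scaling, with no filter or a mean count of 10 or more, with the replicate number as a block, with limma-trend, with quality weights and with separate fits of the compared conditions. Over these 9 settings, 217 of 228 values of called genes stayed under an adjusted p of 0.05, 11 did not, and 0 changed sign. The number of genes called moved by more than 1.5 times in these cases, and the cause was not tested. For sgPRMT5-1 against sgNeg it went from 2 to 1 with a mean count of 10 or more, where LY6D was not fitted, to 1 with no filter, to 1 with limma-trend and to 4 with quality weights. For sgWDR77-1 it went from 4 to 1 with separate fits. For sgPRMT5-2 against sgPRMT5-1 it went from 3 to 5 with quality weights and to 5 with separate fits. For sgWDR77-2 against sgWDR77-1 it went from 0 to 3 with quality weights. With the replicate block, counts were 2, 8, 4, 3, 3, 0 and 7 in the order of the comparisons in the report. Without each library in turn, counts ran from 0 to 3 for sgPRMT5-1, 6 to 8 for sgPRMT5-2, 1 to 5 for sgWDR77-1 and 1 to 2 for sgWDR77-2 against sgNeg, from 1 to 3 between PRMT5 guides, from 0 to 2 between WDR77 guides and from 6 to 7 between targets. Of 198 such values 157 stayed under the threshold, 41 did not and 0 changed sign. No pairing by replicate number was visible: 3 of 15 libraries correlated best with a library of their own number. The median correlation was 0.00259 over 30 pairs with the same number and -0.000172 over 60 pairs without. Such correlations cannot show whether the libraries were prepared in matched batches. LY6D and KLK8 gave no value with a mean count of 10 or more. Fits with edgeR and DESeq2 were planned as alternatives and were not run, since an automated check of units did not read the tables as counts. Genes under about 10 reads rest on few counts, and every call rests on 3 libraries per condition. How far depth or the number of libraries limits the calls was not tested.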
